A study of Mus musculus with 8 samples.

Results

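The 10 genes described here are those of the lipid droplet and its turnover in the mouse liver, Cidec, Cidea, Cideb, Plin2, Plin4, Plin5, G0s2, Pnpla2 and Pnpla3, together with the lysophospholipid transporter Mfsd2a. They were taken by name, 10 of 18193 genes with a probe set of their own on the array. The set was chosen by name for the fat that the regenerating liver stores for a time and by the rise of Cidec intensity after resection, which was already known, so the values before and after resection are given for these genes as a description and without a p-value. The comparison of A20 with its control is not part of that stated reason and was tested. Earlier results of these data were known at the choice, so full independence of that test from the choice cannot be assured. All 10 genes passed the minimum intensity in each of the 4 groups.

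Liver RNA of BALB/c mice, 8 weeks old and weighing 25 to 30 g, was measured on 8 Affymetrix Mouse Genome 430 2.0 arrays, each with the pooled RNA of 3 mice. All mice carried a recombinant adenovirus given through the penile vein, either rAd.A20, which brings in human A20, or rAd.βgal, the β-galactosidase control, and all underwent extended (78%) liver resection 5 days later. The groups, with 2 arrays each, were the lobes removed at surgery (pre-βgal and pre-A20) and the liver remnants 24 h later (post-βgal and post-A20), so the lobe, the surgery and the elapsed time cannot be told apart. The transgene reached 30% to 40% of hepatocytes, human A20 itself is not analysed here, no group was without a virus, and the treatment field of the post-A20 records repeats the βgal wording whereas their titles and source names give A20. Whether a pool of removed lobes and a pool of remnants came from the same mice is not given, and the p-values measure the spread between pools only.

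A lipid droplet is a core of triglyceride and cholesteryl ester under a single layer of phospholipid. Perilipins (Plin genes) coat it and govern the access of lipases, CIDE proteins (Cidea, Cideb, Cidec) sit where droplets touch and pass lipid from the smaller to the larger, and adipose triglyceride lipase (Pnpla2) takes the first fatty acid off the triglyceride. Hepatocytes fill with such droplets for a time after partial hepatectomy and burn or export the fat as they divide. Mfsd2a carries lysophosphatidylcholine with its long-chain fatty acids into cells and is best known at the blood-brain barrier.

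Array medians lay between 153 and 166. The 5 hepatocyte markers measured summed to 72029.9 to 76814 on the arrays before and 77441 to 81654 on those after resection. In the mean of both transgenes 1 of the 5 was called higher after resection, where 3.62% of all genes were. Fgb rose from a mean of 11221 to 18252 in βgal and from 11963 to 15536 in A20 livers. The ratio of the 3′ to the 5′ control probe sets of β-actin, which rises as RNA degrades, ran from 1.27 to 1.62 on 6 arrays but reached 7.0 for replicate 1 of pre-βgal and 3.64 for replicate 1 of post-βgal. For several genes the difference without those 2 arrays is given as well. In such whole-liver RNA, fewer cells of a type and less RNA per cell cannot be told apart.

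The start regions of the 3 genes with the largest resection differences are shown because they are the stretches where regulators of these genes would be looked for. They are RefSeq promoters on mouse build GRCm38.p6, from 250 bases before to 50 after the start, read 5′ to 3′ on the gene's strand. Cidec has a pair of annotated starts, and capitals mark the match to the C/EBP motif TTGCNNAA.
Cidec start 1, chr6:113435711-113436010, minus strand: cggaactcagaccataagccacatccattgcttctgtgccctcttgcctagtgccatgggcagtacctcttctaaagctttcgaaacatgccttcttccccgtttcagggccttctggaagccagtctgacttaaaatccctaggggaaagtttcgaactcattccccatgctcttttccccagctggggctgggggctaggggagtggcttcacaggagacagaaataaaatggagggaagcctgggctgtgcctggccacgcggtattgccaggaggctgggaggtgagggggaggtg
Cidec start 2, chr6:113434715-113435014, minus strand: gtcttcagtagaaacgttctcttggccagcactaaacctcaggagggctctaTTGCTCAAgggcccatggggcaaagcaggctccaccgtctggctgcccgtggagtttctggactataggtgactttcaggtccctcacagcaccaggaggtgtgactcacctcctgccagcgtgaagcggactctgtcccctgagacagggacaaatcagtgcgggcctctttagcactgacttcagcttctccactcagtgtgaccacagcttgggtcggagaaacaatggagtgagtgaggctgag
Mfsd2a, chr4:122961139-122961438, minus strand: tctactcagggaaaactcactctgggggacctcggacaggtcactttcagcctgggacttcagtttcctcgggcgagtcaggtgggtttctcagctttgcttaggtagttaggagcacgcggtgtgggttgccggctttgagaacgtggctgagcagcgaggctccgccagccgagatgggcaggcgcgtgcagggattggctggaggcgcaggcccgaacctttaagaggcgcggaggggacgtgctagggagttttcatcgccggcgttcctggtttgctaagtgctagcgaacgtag
Plin4, chr17:56109733-56110032, minus strand: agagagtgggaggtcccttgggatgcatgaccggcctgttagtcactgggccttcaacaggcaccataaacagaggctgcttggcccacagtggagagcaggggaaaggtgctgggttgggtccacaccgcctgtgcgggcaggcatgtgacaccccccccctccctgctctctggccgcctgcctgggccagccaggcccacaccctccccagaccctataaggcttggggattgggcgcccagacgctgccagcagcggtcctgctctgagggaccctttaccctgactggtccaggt

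Across 11 such windows of 9 of the 10 genes, all but Cidea, 4 motifs were searched on both strands. They were the element of the PPAR fat-sensing receptors (AGGNCA, any base, AGGNCA), the C/EBP motif TTGCNNAA, the NF-kB motif (GGGAN followed at once by TTNCC) and the TATA box TATAAA, found in 0.381%, 10.8%, 1.2% and 13.6% of 32851 promoters of the same 300 bases. The C/EBP motif was matched once, from −198 to −191 of Cidec start 2, and the TATA box once, from −172 to −167 of Cideb. The absence of a match says only that these letters are not in the window, and it says nothing of Cidea, which was left out of the search. Plin4 and Plin5 are neighbours on chromosome 17.

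Cidec, also called Fsp27, joins droplets and lets them grow. Its normalized intensity was 94.5 and 99.4 in the pre-βgal arrays and 1318 and 1165 in the post-βgal arrays. In A20 livers it was 89.4 and 81.1 before and 640 and 950 after resection. All arrays after resection lay far above all arrays before it, and the post-A20 arrays lay below both post-βgal arrays. The group mean was 12.8-fold higher after resection in βgal livers and 9.32-fold higher in A20 livers, which on the log2(intensity + 16) scale was a difference of 3.47 ± 0.18 (SE) and of 2.98 ± 0.18. Of 17790 genes ordered by that difference, Cidec stood at place 1 in βgal and at place 9 in A20 livers.

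The 2 relatives of Cidec did not follow it. Cidea, the form of brown fat and of the fatty liver, read 81.4 and 86.8 (pre-βgal), 92.8 and 98.8 (post-βgal), 97.4 and 97.4 (pre-A20) and 105 and 79.4 (post-A20), so that the A20 arrays before and after overlapped and the βgal arrays were set apart by a small gap. Cideb, the form of the resting hepatocyte, where it serves the loading of very low density lipoprotein with fat, read 2970.0 and 3717 before and 2780.1 and 2822 after resection in βgal livers. In A20 livers it read 4107 and 3527 before and 4153 and 3891 after. The post-βgal arrays were the lowest of the 8 and the A20 groups overlapped. The log2 differences after minus before resection were 0.16 ± 0.11 (SE) in βgal and −0.08 ± 0.11 in A20 livers for Cidea, and −0.25 ± 0.17 and 0.08 ± 0.17 for Cideb. Without both βgal replicate 1 arrays the Cideb difference in βgal livers was −0.40. All Cidea readings, 79.4 to 105, lay below the lowest array median of 153.

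**Figure D1:**
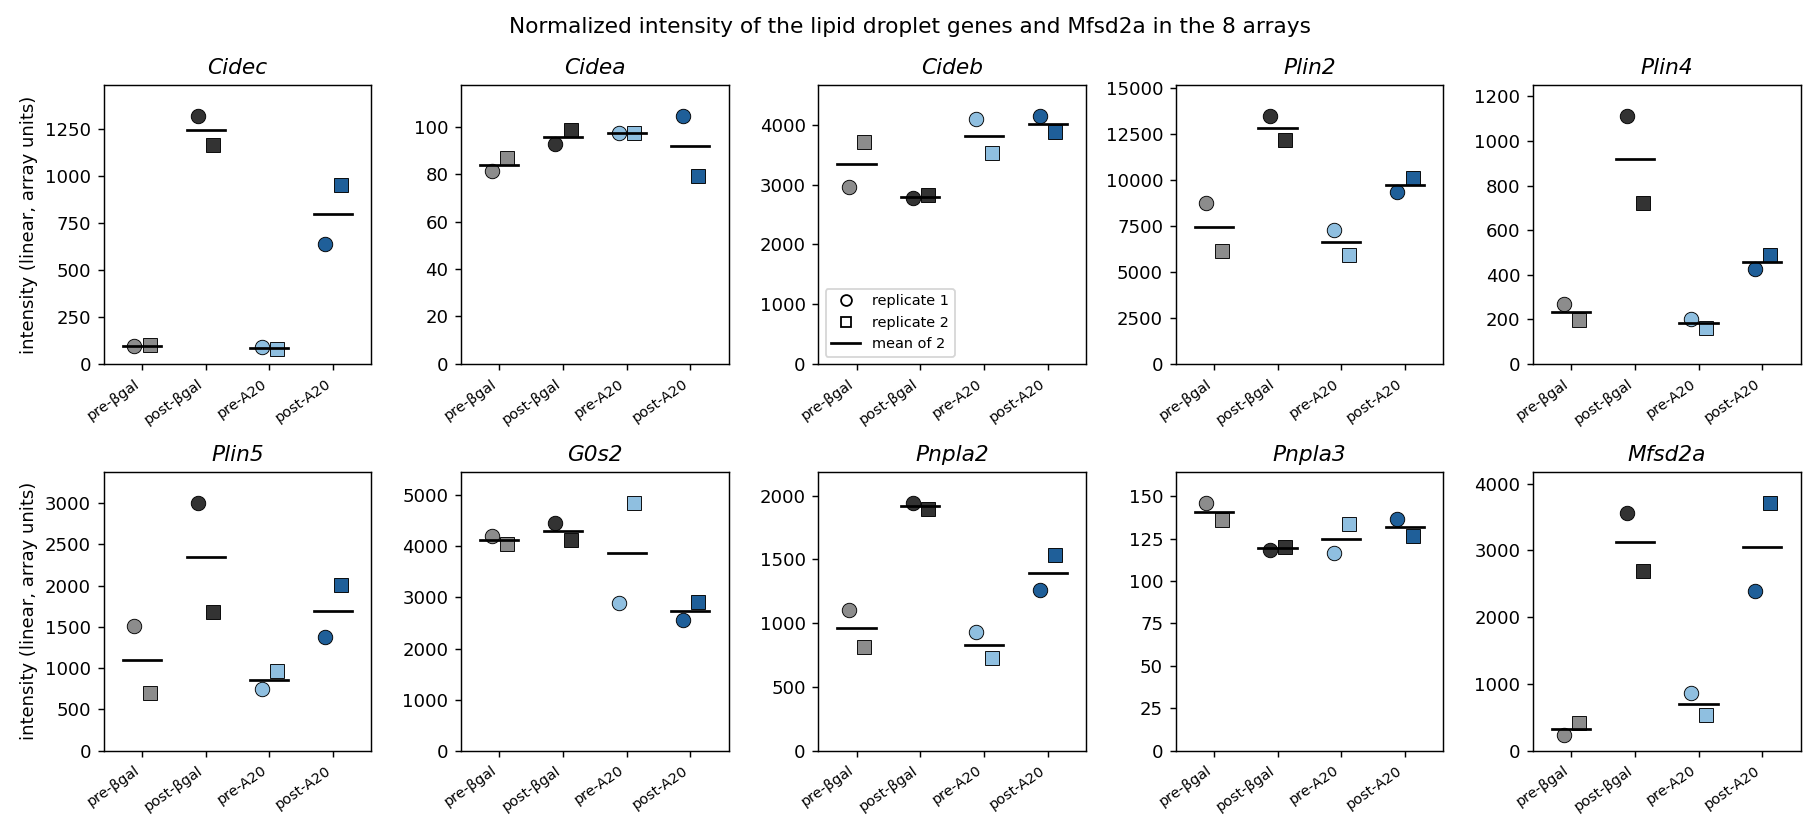
Normalized intensity (linear, array units, each vertical axis from 0) of the 10 genes in the 8 arrays, with 1 point per array (circle for replicate 1, square for replicate 2) and a bar at the mean of the 2 arrays of a group. Cidec, Plin4 and Mfsd2a stand far higher in both groups after resection, whereas Cidea, Cideb, G0s2 and Pnpla3 show no such step.

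The 3 perilipins among these genes stood higher after resection with either transgene. Plin2, the perilipin that covers most droplets of the hepatocyte, read 8727 and 6155 before and 13474 and 12155 after resection in βgal livers, and 7274 and 5918 before and 9323 and 10102 after in A20 livers. Plin4, which coats small nascent droplets, read 270 and 195, then 1112 and 722 in βgal livers, and 203 and 163, then 428 and 490 in A20 livers. For both genes every array after resection lay above every array before it, and both post-A20 arrays lay below both post-βgal arrays. The log2 difference after minus before resection was 0.80 ± 0.18 (SE) in βgal and 0.56 ± 0.18 in A20 livers for Plin2, and 1.89 ± 0.23 and 1.26 ± 0.23 for Plin4, whose mean was 3.95-fold and 2.50-fold higher.

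Plin5, the perilipin that ties droplets to mitochondria, was measured by 2 probe sets. The brighter read 1508 and 699 before and 3004 and 1685 after resection in βgal livers, and 744 and 959 before and 1380 and 2005 after in A20 livers. The other read 849 and 702, then 2194 and 1627 in βgal livers and 669 and 823, then 1335 and 1964 in A20 livers. Within each transgene the arrays after resection lay above those before on both probe sets, but on the brighter one the pre-βgal array with the degraded control ratio lay above a post-A20 array. The log2 difference on the brighter probe set was 1.12 ± 0.40 (SE) in βgal and 0.96 ± 0.40 in A20 livers. Single arrays moved the βgal difference to 0.57 (without pre-βgal replicate 2) or 1.66 (without pre-βgal replicate 1), and without both βgal replicate 1 arrays it was 1.25.

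Among the genes of droplet breakdown, only the lipase itself stood higher after resection in all arrays. Pnpla2 read 1099.6 and 815 before and 1944 and 1895 after resection in βgal livers, and 931 and 723 before and 1262 and 1530.1 after in A20 livers. G0s2, the small protein that binds and inhibits this lipase, read 4198 and 4051, then 4461 and 4123 in βgal livers, and 2894 and 4856, then 2561 and 2903 in A20 livers. Pnpla2 did not overlap between before and after, whereas G0s2 did with either transgene. The log2 difference after minus before resection was 1.01 ± 0.21 (SE) in βgal and 0.75 ± 0.21 in A20 livers for Pnpla2, and 0.06 ± 0.23 and −0.46 ± 0.23 for G0s2. The G0s2 difference in A20 livers was −0.83 without pre-A20 replicate 1 and −0.09 without pre-A20 replicate 2. A second probe set of Pnpla2 read only 104 to 127 on the 8 arrays and did not show the step (with the mean of both, the Pnpla2 difference was 0.49 in βgal and 0.50 in A20 livers).

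Pnpla3, a droplet protein of the same family whose human form is known for its link to fatty liver, read 146 and 136 before and 118 and 120 after resection in βgal livers, and 117 and 133 before and 137 and 127 after in A20 livers. In βgal livers the pair before lay above the pair after, and the A20 arrays overlapped. The log2 difference was −0.21 ± 0.09 (SE) in βgal and 0.07 ± 0.09 in A20 livers. The whole range of Pnpla3 was 117 to 146, below the lowest array median of 153.

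Mfsd2a read 236 and 421 before and 3555 and 2690.2 after resection in βgal livers. In A20 livers it read 870.2 and 532 before and 2400.2 and 3717 after. All arrays after resection lay above all arrays before, both pre-A20 arrays lay above both pre-βgal arrays, and the groups after resection overlapped. The mean was 9.50-fold higher after resection in βgal livers and 4.36-fold higher in A20 livers, log2 differences of 3.23 ± 0.35 (SE) and 2.11 ± 0.35. It stood at place 3 and place 26 of 17790 genes. Without both βgal replicate 1 arrays the βgal difference was 2.63.

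**Figure D2:**
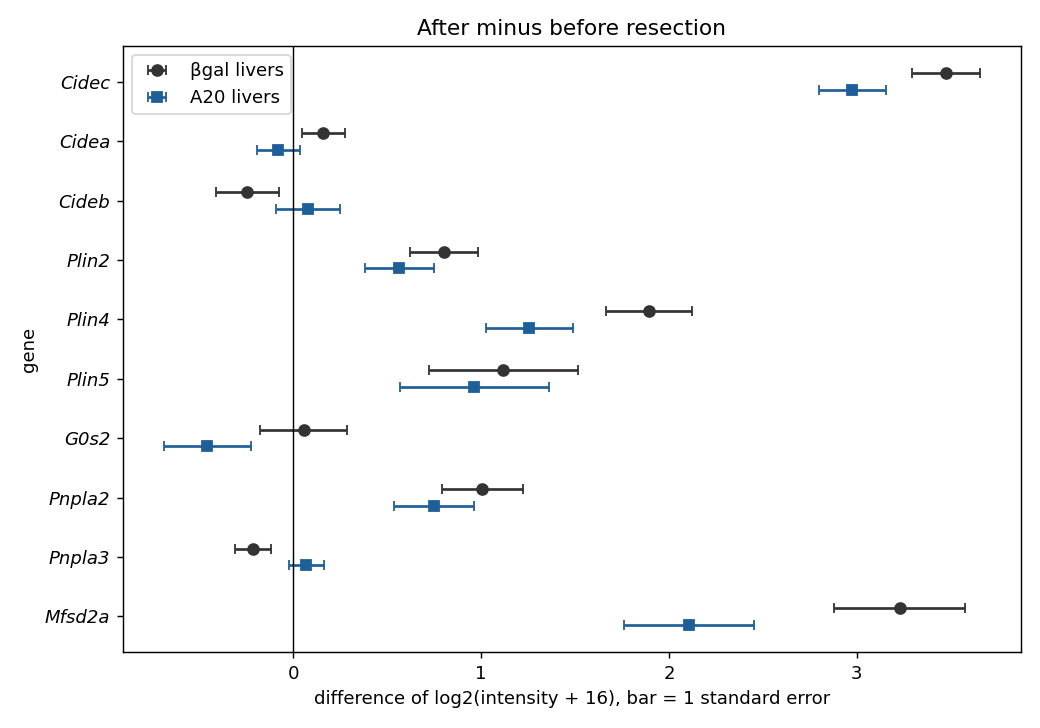
Difference after minus before resection of log2(intensity + 16) for the 10 genes, with βgal livers as circles, A20 livers as squares and bars of 1 standard error from limma. Cidec (3.47 and 2.98) and Mfsd2a (3.23 and 2.11) lie farthest to the right, followed by Plin4 (1.89 and 1.26), and the point of A20 lies to the left of that of βgal for each gene that stood higher.

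At an adjusted p under 0.05 in limma, 5 of the 10 genes counted as higher after resection in βgal livers, where 2.48% of all genes did, 3 in A20 livers, where 1.22% did, and 5 in the mean of both, where 3.62% did. Those of the mean were Cidec, Mfsd2a, Plin4, Pnpla2 and Plin2, and none of the 10 was called lower. Arrays that did not overlap and stood higher after resection were found for 7 genes in βgal livers (20.4% of all genes) and for 6 in A20 livers (29.4%). Since the genes were gathered with this contrast in view, nothing is read from these counts. The median difference of the 10 genes was 0.90 in βgal and 0.66 in A20 livers, beside −0.05 and 0.02 over all genes.

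The comparison of A20 with βgal asks whether the transgene altered these genes. Before resection limma called 0 of the 10 genes, where 4.63% of all genes were called, and 1 had an unadjusted p under 0.05, as had 23.4% of all genes. It was Mfsd2a, with a mean of 701 ± 239 (SD, n = 2) in pre-A20 and 329 ± 130 in pre-βgal livers. The log2 difference was 1.07 ± 0.35 (SE), limma's adjusted p 0.114 and the 90% interval 0.43 to 1.71. Leaving out pre-βgal replicate 2 raised it to 1.47, resting on the remaining pre-βgal array, whose β-actin ratio was 7.0. Leaving out pre-βgal replicate 1 lowered it to 0.67. The arrays of 2 genes lay wholly higher with A20 (Mfsd2a and Cidea, 22.1% of all genes) and of 2 wholly lower (Cidec and Pnpla3, 29.3%), and the remaining 6 genes overlapped.

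After resection limma again called 0 of the 10 genes, where 1.42% of all genes were called, and 4 had an unadjusted p under 0.05, as had 21.5% of all genes. The lowest adjusted p was that of Plin4, with a mean of 459 ± 43.9 (SD, n = 2) in post-A20 and 917 ± 276 in post-βgal livers, a log2 difference of −0.95 ± 0.23 (SE) and an adjusted p of 0.0850 in limma. Cidec differed by −0.66 ± 0.18, with an adjusted p of 0.105 in limma, and G0s2 by −0.65 ± 0.23, with 0.167. The Cidec difference was −0.38 without post-A20 replicate 1 and −0.94 without post-A20 replicate 2. Cideb differed the other way, by 0.52 ± 0.17 with an adjusted p of 0.146 in limma. The remaining differences were −0.46 for Pnpla2, −0.43 for Plin5, −0.40 for Plin2, 0.13 for Pnpla3, −0.06 for Cidea and −0.05 for Mfsd2a, of which the 90% interval was −0.69 to 0.59.

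Without overlap, 5 genes stood lower in the post-A20 arrays (Cidec, Plin2, Plin4, G0s2 and Pnpla2), where 26.4% of all genes did, and 2 stood higher (Cideb and Pnpla3), where 33.7% did. The median of the 10 differences was −0.42 beside 0.03 over all genes. Without both βgal replicate 1 arrays the difference of Plin4 was −0.64, that of Cidec −0.57 and that of Plin5 −0.02. Without post-βgal replicate 2 that of Plin5 was −0.85. This comparison and that of resection in βgal livers share the post-βgal arrays.

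**Figure D3:**
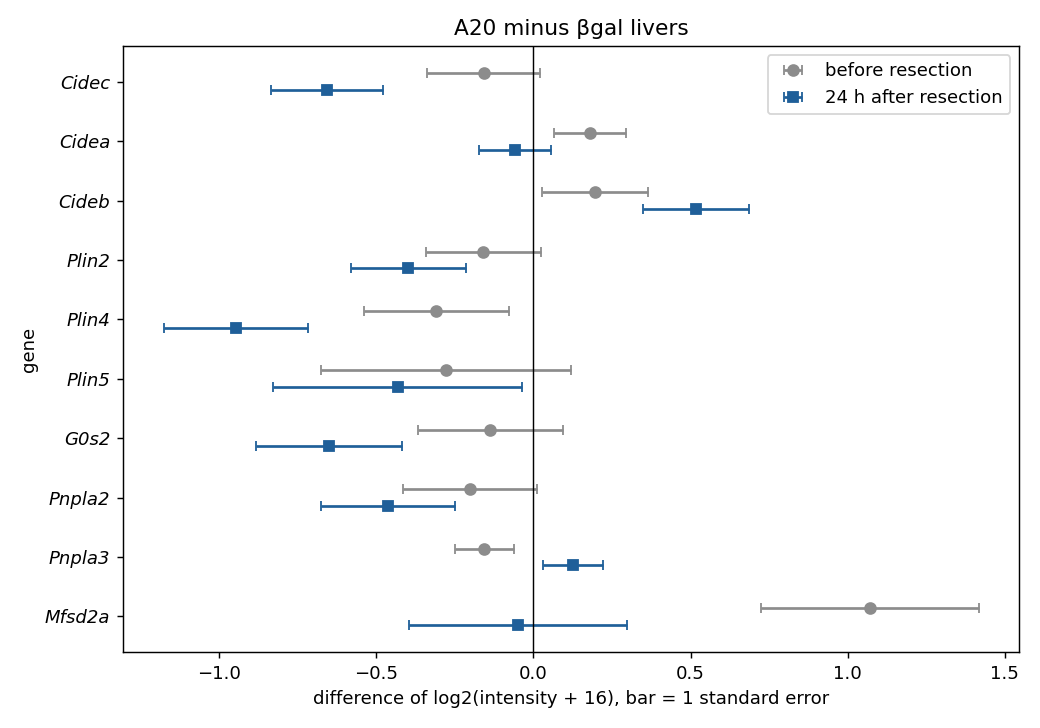
Difference A20 minus βgal of log2(intensity + 16) for the 10 genes before and after resection, with bars of 1 standard error from limma. After resection Plin4 (−0.95), Cidec (−0.66) and G0s2 (−0.65) lie to the left of 0 and Cideb (0.52) to the right, Mfsd2a lies to the right before resection (1.07), and none of these was called.

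With before and after averaged, 1 of the 10 genes was called, Plin4, and 5.20% of all genes were called lower. Its difference was −0.63 ± 0.16 (SE), with an adjusted p of 0.0499 in limma, and the value before resection was −0.31. The call was lost under 18 of 24 other settings, with adjusted p from 0.0151 to 0.163, among them leaving out pre-βgal replicate 1 (0.0962), post-βgal replicate 1 (0.135) or any one of the A20 arrays. Without both βgal replicate 1 arrays the difference was −0.37. The interaction, the resection difference of A20 livers minus that of βgal livers, was called by limma for 0 of the 10 genes and for 0.0281% of all genes (5), and 1 of the 10 had an unadjusted p under 0.05, as had 17.3% of all genes. That gene was Mfsd2a, with −1.12 ± 0.49 (SE) and an adjusted p of 0.288 in limma. The next by size were Plin4 (−0.64 ± 0.33, 90% interval −1.24 to −0.04), G0s2 (−0.51 ± 0.33, −1.12 to 0.09) and Cidec (−0.50 ± 0.25, −0.97 to −0.03). Cideb (0.32 ± 0.24) and Pnpla3 (0.28 ± 0.13, 90% interval 0.04 to 0.53) went the other way. The Mfsd2a interaction was −0.72 without pre-βgal replicate 1 and −0.52 without both βgal replicate 1 arrays. Leaving out 1 array moved that of Plin4 from −0.33 (post-βgal replicate 1) to −0.94 (post-βgal replicate 2) and that of Cidec from −0.22 (post-A20 replicate 1) to −0.78 (post-A20 replicate 2). For G0s2 the interaction was −0.51, with −0.89 without pre-A20 replicate 1 and −0.14 without pre-A20 replicate 2.

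The other genes of fat storage and of lysophospholipid handling were taken from 7 lists with 88 genes measured. In the mean of both transgenes 8 of them rose after resection and 7 fell, where 3.62% and 2.52% of all genes did. Other settings gave 8 to 22 calls in place of 15, and leaving out an array gave 6 to 17. Fabp4, a fatty acid carrier of fat cells, macrophages and endothelium, rose most, with 215 to 349 on the arrays before and 1413 to 2351 on the arrays after resection. Its log2 difference was 2.73 ± 0.17 (SE), with an adjusted p of 0.000238 in limma, and its arrays did not overlap. With the mean of its probe sets in place of the brightest the difference was 1.30.

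Of 12 other proteins of the droplet coat and its assembly, 1 rose after resection. It was Hilpda, an inhibitor of Pnpla2 induced by low oxygen and by fatty acids, with 0.80 ± 0.18 (SE, limma's adjusted p 0.0359). Fitm1 (−0.64 ± 0.17, limma's adjusted p 0.0697) and Hsd17b11 (−0.52 ± 0.15, 0.0762) stood lower after resection and were not called. Plin3, a perilipin of nascent droplets, read 1407 and 817 before and 1955 and 1614 after resection in βgal livers, and 905 and 769 before and 742 and 740.2 after in A20 livers, and was not called (0.28 ± 0.18 in the mean of both). Of 16 genes of triglyceride synthesis, Agpat3 rose by 0.69 and Dgat2, the enzyme that adds the last fatty acid, fell by 0.66 ± 0.10 with an adjusted p of 0.00656 in limma. In βgal livers alone Lpin1, the phosphatidate phosphatase one step earlier, rose from 503 and 387 to 2095 and 1143, a difference of 1.77 ± 0.30. In A20 livers Lpin1 read 819 and 632 before and 453 and 614 after (−0.44 ± 0.30), and the interaction of −2.21 ± 0.42 had an adjusted p of 0.142 in limma.

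Of 7 other genes of lipolysis, the hydrolases Ces1d and Aadac fell, by 1.09 ± 0.19 (SE) and 0.54 ± 0.12. Of 8 genes of triglyceride export, Apob, the structural protein of very low density lipoprotein, rose by 1.05 ± 0.20. Among 13 genes of fatty acid uptake and binding, Angptl4, an inhibitor of lipoprotein lipase, rose by 0.76 ± 0.17 beside Fabp4, and Slc27a5, which activates bile acids and fatty acids, fell by 0.72 ± 0.14. Of 19 genes listed for the handling of lysophospholipids and of their breakdown products, only Gde1 rose (0.60 ± 0.14). Its mean went from 1077 to 2251 in βgal and from 1318 to 1465 in A20 livers.

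Of 13 transcriptional regulators of lipid storage, 3 fell after resection and 2 rose. Mlxipl, the carbohydrate-responsive factor of fat synthesis, fell by 1.29 ± 0.20 (SE), Cebpa by 1.20 ± 0.18 and Srebf1, which drives fatty acid synthesis under insulin, by 1.10 ± 0.14, with adjusted p of 0.00803, 0.00805 and 0.00447 in limma. Hif1a, the oxygen-sensing factor, rose by 0.65 ± 0.12, and Ppargc1a, a coactivator of fat oxidation named after its values were seen, by 0.91 ± 0.14. The mean of Hif1a went from 976 to 1957 in βgal and from 850 to 1051 in A20 livers. The calls of Fabp4, Mlxipl, Cebpa and Srebf1 held under all 24 other settings, and those of the other 11 genes were lost under 1 to 10 of them. With the mean of probe sets the differences of Apob (0.45) and Agpat3 (0.24) were smaller and not called, and that of Ppargc1a was 0.57.

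Between A20 and βgal, with before and after averaged, 5 of the 88 genes were higher and 6 lower, where 3.39% and 5.20% of all genes were called. Other settings gave 2 to 19 calls in place of 11, and leaving out an array gave 2 to 25. Apob stood at 1047 and 1308 (pre-βgal), 2094 and 2053 (post-βgal), 3631 and 1846 (pre-A20) and 6260.0 and 6348 (post-A20), so that both A20 groups lay above their controls. The difference was 1.37 ± 0.20 (SE), with an adjusted p of 0.0109 in limma. Slc27a2, which imports and activates fatty acids, was higher by 0.86 ± 0.12 (limma's adjusted p 0.00958) and Ppara, the receptor that drives fatty acid oxidation, by 1.24 ± 0.22 (limma's adjusted p 0.0177). The Ppara value belongs to its brightest probe set. Without pre-A20 replicate 2, post-A20 replicate 1 or post-A20 replicate 2 another probe set was the brightest, and the difference fell to 0.25, 0.13 and 0.046 with limma's adjusted p up to 0.910. With the probe set kept, a setting chosen after seeing the data, it was 1.10 to 1.25 without those arrays, again not called (limma's adjusted p 0.0560 to 0.0733). The mean of probe sets gave 0.58 for Ppara and 0.74 for Apob, both called.

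Slc27a5 (0.55) and the lysophospholipid acyltransferase Lclat1 (0.44) were the other genes higher with A20. The coat protein Plin3 was lower (−0.80 ± 0.18, SE, limma's adjusted p 0.0343), and so were Tm6sf2 (−0.65), Pnpla6 (−0.60), Hif1a (−0.54), Cav1 (−0.52) and Mogat1 (−0.34). The mean of Tm6sf2 was 1470 in pre-βgal and 662 in pre-A20 livers, but 1379 and 1234 after resection. That of Hif1a was 976 and 850 before, but 1957 and 1051 after. Before resection alone 4 of the 88 genes were called, Gpcpd1, Slc27a2, Tm6sf2 and Cav1, where 4.63% of all genes were. Gpcpd1 cleaves glycerophosphocholine, the product of a fully deacylated phospholipid. It stood at 197 and 446 in pre-βgal and 1237 and 1421 in pre-A20 livers. Its difference of 2.10 ± 0.41 (SE) was called at limma's adjusted p of 0.0312. That call was lost under 7 of 25 other settings, the difference was 0.97 with the mean of probe sets, and the interaction of −2.12 ± 0.58 was not called (limma's adjusted p 0.168). With other probe set choices the averaged Hif1a difference was −0.29 and −0.31, and without both βgal replicate 1 arrays that of Pnpla6 was −0.39, none of them called. Of the 11 averaged calls, that of Slc27a2 held under all 24 other settings, that of Apob was lost under 1 and those of the rest under 5 to 15.

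**Figure D4:**
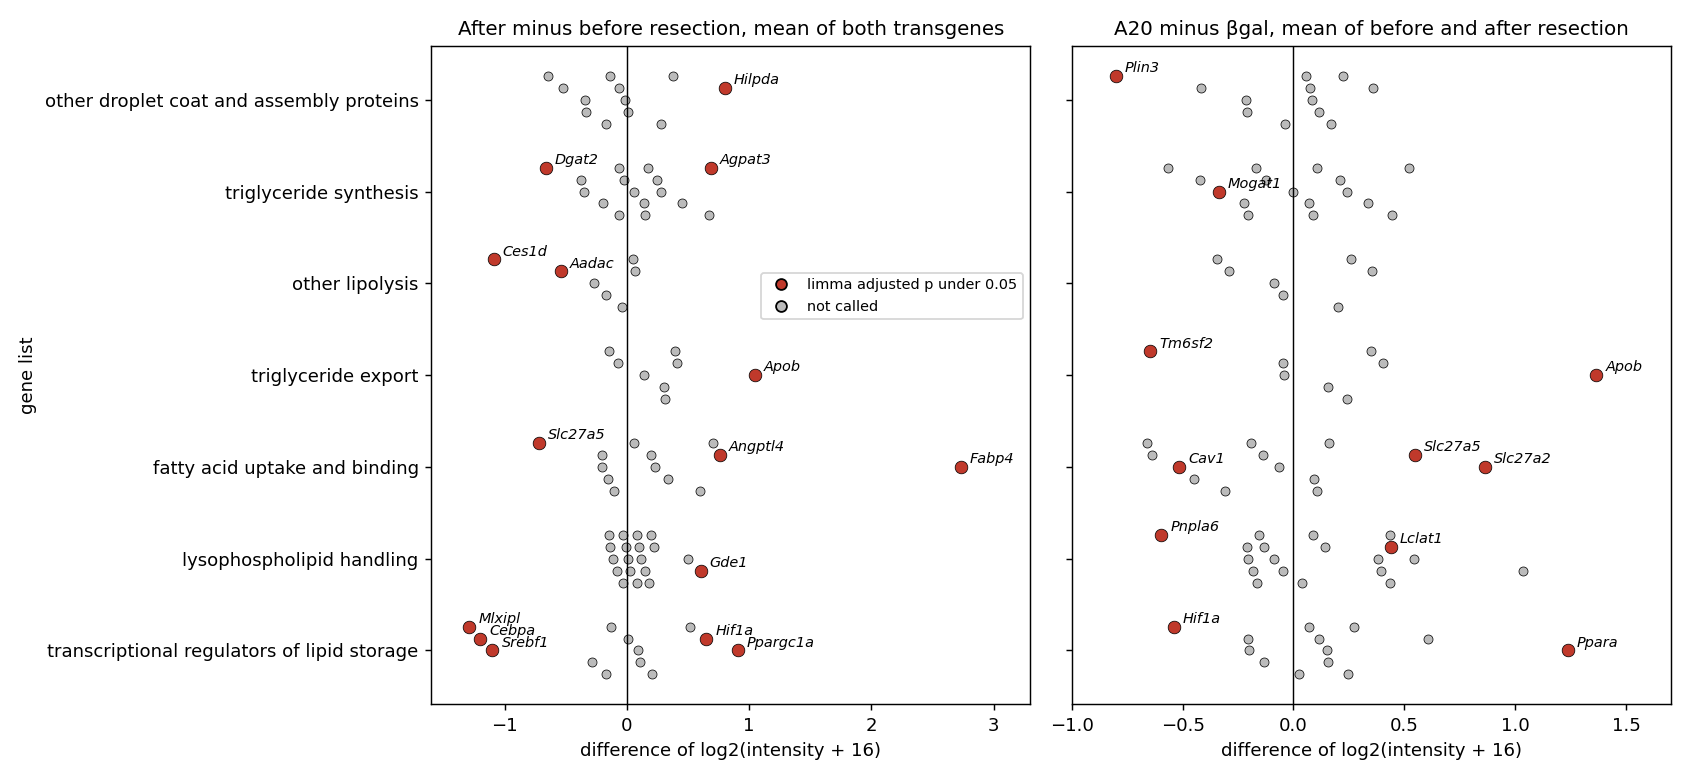
Differences of log2(intensity + 16) for the 88 genes of 7 lists around the droplet, after minus before resection (left, mean of both transgenes) and A20 minus βgal (right, mean of before and after), with 1 point per gene, offset vertically within a list for legibility. Named red points were called by limma; Fabp4 (2.73) stands apart on the left and Apob (1.37) and Ppara (1.24) on the right.

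Markers of other cells were set beside these values. In the averaged comparisons 3.62% of all genes were called higher and 2.52% lower after resection. With A20 it was 3.39% higher and 5.20% lower. Of 4 adipocyte markers, 1 was called after resection, Fabp4, which is not confined to that cell. Adiponectin (Adipoq) read 52.2 to 91.3, leptin (Lep) 49.6 to 64.8 and resistin (Retn) 431 to 639 over the 8 arrays, and the sum of the list was 818 to 1080 on the arrays before and 2012 to 3003 on the arrays after resection, a step carried by Fabp4. The brown adipocyte list had 0 of 4 called in limma in either averaged comparison. At limma's unadjusted p under 0.05 it had 1 for A20, beside 4984 of all 17790 genes, and 0 for resection, beside 3999. Its sum was 3229 to 3655 in pre-βgal, 1929 to 2572 in pre-A20, 1550 to 2761 in post-βgal and 1697 to 2223 in post-A20 livers. That sum was carried by Elovl3 (1113 to 3223 over the 8 arrays), whereas Ucp1 read 145 to 190, Cox7a1 101 to 231 and Cox8b 85.8 to 104.

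The lists of the other liver cells moved as well. The 6 Kupffer cell markers summed to 4284 to 4875 in pre-βgal and 2678 to 2858 in pre-A20 livers, and to 3466 to 4504 and 4157 to 4567 after resection. Between A20 and βgal, averaged, C1qa was lower (−0.61 ± 0.14, SE) and Marco higher (0.46 ± 0.10), and Marco fell after resection by 0.42. The 6 stellate cell markers summed to 3714 to 4536 in pre-βgal and 5547 to 5722 in pre-A20 livers, and to 3666 to 3851 and 4370 to 5041 after resection, with 1 of 6 called, Colec11, which fell after resection (−1.26 ± 0.13).

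The 6 endothelial markers summed to 2836 to 3306 on the arrays before and 2508 to 3108 on those after resection, and 3 of them were called in the mean of both transgenes. Lyve1, the hyaluronan receptor of the sinusoid, rose from 180 and 173 to 660 and 719 in βgal livers and from 129 and 125 to 273 and 443 in A20 livers (1.61 ± 0.14, SE), and was lower with A20 (−0.69 ± 0.14). Cdh5 rose by 0.56 and Kdr fell by 0.90. Of the 4 cholangiocyte markers 0 were called in limma in either averaged comparison. At limma's unadjusted p under 0.05 there was 1 for A20, beside 4984 of all 17790 genes, and 0 for resection, beside 3999.

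The 5 neutrophil markers summed to 4277 to 5021 in post-βgal and 1556 to 1809 in post-A20 livers, and 2304 to 3043 in pre-βgal and 1250.1 to 1288 in pre-A20 livers. S100a8 and S100a9 were the 2 of 5 that were lower with A20 (−2.16 ± 0.19 and −2.58 ± 0.18, SE), while Mpo, Camp and Ngp were not called. After resection 2 of the 5 were called higher in the mean of both transgenes. The mean of S100a8 went from 765 to 1736 in βgal and from 162 to 361 in A20 livers. That of S100a9 went from 897 to 1938 and from 127 to 331. The part of these cells and of those named before them in the differences of Cidec, Plin4, Fabp4 and the other genes was not tested.

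The genes whose log2 intensity ran most like that of Cidec over the 8 arrays, of 3208 that spanned at least 1 on the log2 scale, were Gpx3 (Pearson r = 0.989), Fabp4 (0.988), Serpina3n (0.986), Hyal2 (0.985) and Ajuba (0.983). Those most like Mfsd2a were Gdf10 (0.969), Tmem248 (0.966), Ctsl (0.963), 1810055G02Rik (0.958) and Serpina3n (0.953). The arrays before and after resection form separate sets for each of these genes, so the values describe that step above all and carry no test. On average over the transgenes Serpina3n stood higher after resection by 1.41, Gpx3 by 1.57 and Gdf10 by 0.69.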

How the data were processed

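The authors deposited 1 table of normalized intensity per probe set on a linear scale. Their methods name dChip with invariant set normalization and a PM-only model, MAS5 appears in the records of the samples, and the sources used here do not settle which made it; it was used as deposited. The array has 45101 probe sets, 64 of them controls; 34945 have a single symbol, 932 more than 1 and 9160 none. For each symbol the brightest probe set on average was taken, if a group mean reached 40 (17790 genes). The precision is limited by 2 arrays per group.

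Differences of log2(intensity + 16), an offset that understates changes of dim genes, were tested in R 4.3.3 with limma 3.58.1 (4 group means, moderated variance with trend, 4 residual and 4.52 prior degrees of freedom, 2-sided, Benjamini-Hochberg over all genes, called under 0.05), after a test on simulated data. Of each list, the 3 genes of lowest p for resection and the 2 for A20 were to be named, with the 5 genes most like Cidec and Mfsd2a. Several of those not called are not given above. The members and lists were chosen with earlier results of these data known. Other settings were scaling, offset, filter, probe set, variance model, replicate block, RNA integrity, arrays left out and an interval criterion. Whether a replicate number marks shared mice is not given, so it entered only as a block in alternative settings. Promoters came from RefSeq, and listed genes without a probe set of their own were not analysed here.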

Additional observations from a re-analysis of the deposited data

Results flagged for a closer look

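Pnpla3 stood lower with A20 than with βgal on every array before resection (117 and 133 against 146 and 136) and higher on every array after it (137 and 127 against 118 and 120). The interaction was 0.28 ± 0.13 (SE), with an adjusted p of 0.315 in limma, so the difference between the 2 states was tested and not called. Such an opposite order without overlap was found for 10.2% of all genes and for 1 of the 10 droplet genes. All Pnpla3 readings lay below the lowest array median of 153.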

How the results depend on the processing

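The number of arrays, 2 per group, limits every call, and the cause of the changes below was not tested. After resection, A20 against βgal gave 2 called genes (Plin4 and G0s2) in place of 0 when fitted on its 4 arrays alone. It gave 1 (Plin4) with RNA integrity as a covariate and 4 (Cidec, Plin4, Plin5 and G0s2) with the replicate block within each transgene. Over all genes these fits called 1116, 826 and 1742 in place of 252. That block gave 1 (Plin5) before resection and 3 in the average. Over all genes it called 1482 and 2231 there, in place of 823 and 1528. The average gave 0 in place of 1 under quantile normalization, median centring, no minimum, an offset of 1, a floor of 20, eBayes without trend or robust, either other choice of probe set, the RNA covariate, without both βgal replicate 1 arrays, the interval criterion (90%, at least 1.5-fold) and a variance prior from all probe sets, a setting chosen after seeing the data. After against before resection in βgal livers gave 2 calls in place of 5 on its 4 arrays alone, and 3 with either other choice of probe set, that prior or without both βgal replicate 1 arrays. In A20 livers it gave 1 in place of 3 with the probe set of highest variance and 6 with the RNA covariate. Over all genes those 2 fits called 145 and 1187 in place of 358, and the βgal fit on 4 arrays 83 in place of 710. The resection counts are a description, since the genes were gathered with that contrast in view. The interaction stayed at 0 in all fits. Leaving out 1 array at a time gave 0 to 1 calls for A20 before, 0 to 1 after, 0 to 3 averaged, and 3 to 6, 1 to 3 and 3 to 6 for resection in βgal livers, in A20 livers and averaged.

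As a description only, none of the resection differences called changed sign. Among uncalled differences of A20, the sign turned with the RNA covariate for Plin2 before (0.0092), Plin5 before and averaged (0.19 and 0.061) and Pnpla3 averaged (0.012), without both βgal replicate 1 arrays for Plin2, Plin5 and Pnpla2 before (0.092, 0.27 and 0.0093), Plin5 and Pnpla3 averaged (0.12 and 0.0038) and Mfsd2a after (0.15), with the block within transgene for Cidea and Mfsd2a after (0.065 and 0.064), and with the mean of probe sets for the Pnpla2 interaction (0.0050). Leaving out 1 array turned Cidea after (−0.23 to 0.11) and averaged (−0.024 to 0.15), Plin2 before (−0.41 to 0.092) and in the interaction (−0.49 to 0.012), Plin5 before (−0.82 to 0.27) and in the interaction (−0.70 to 0.39), G0s2 before (−0.51 to 0.24), Pnpla2 before (−0.42 to 0.0093), Pnpla3 averaged (−0.059 to 0.028) and Mfsd2a after (−0.36 to 0.26).

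The replicate number as a block over all groups left the calls of A20 at 0 before, 0 after and 1 averaged. Deviations of replicate 1 correlated at 0.62 between the βgal groups, whose replicate 1 arrays are the 2 with the high β-actin ratio, at −0.02 between the A20 groups and at −0.14 to 0.16 between groups of different transgene. The labels give no shared source for a number, so pairing by it could not be settled.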
